A study of Mus musculus with 18 samples.

Results

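The neural cell adhesion molecule gene Ncam1, its paralog Ncam2 and the polysialyltransferase genes St8sia2 and St8sia4 were followed in cell lines of malignant peripheral nerve sheath tumor (MPNST), a soft tissue sarcoma that arises from the sheath of peripheral nerves. These 4 genes, of 35275 in the table of read counts, were found by their symbols and had been chosen by their difference between genotypes in these same libraries. The levels by genotype are therefore given as a description without a test, and tests are given for pairs of lines within a genotype and for the other genes of the pathway.

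The lines came from tumors of wild-type 129 Sv/Jae mice whose sciatic nerve had been injected with an adenovirus carrying Cas9 under the CMV promoter and guide RNAs. The guides targeted Nf1 and p53 (Trp53 in the mouse) in the Nf1/p53 dKO group (genotype Nf1-/-;p53-/-) and Nf1 and Cdkn2a in the Nf1/Cdkn2a dKO group (genotype Nf1-/-;Cdkn2a-/-), so both groups lack Nf1. RNA-seq was run on 18 untreated libraries, with 3 lines per genotype and 3 cultures per line. Each line stands for 1 tumor, had been passaged at least 20 times, and was grown in DMEM with fetal bovine serum, and the age of the mice is not given in the labels. The CMV promoter is active in many cell types, and the cell of origin of a tumor was not marked. Nothing in the labels says how far apart the replicates of a line were grown, so p-values between lines measure the spread between these libraries, which may be technical.

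NCAM is a surface glycoprotein of the immunoglobulin superfamily that holds neighboring cells together by binding NCAM on the next cell, and it is found on neurons, on immature and nonmyelinating Schwann cells and on muscle progenitors. Long chains of sialic acid (polysialic acid) are built on its N-glycans in the Golgi by the enzymes ST8SIA2 and ST8SIA4, either of which can make the polymer alone. Polysialic acid weakens NCAM adhesion and is abundant in embryonic nervous tissue and in several neural and neuroendocrine tumors. RNA-seq measures the transcripts of these genes, and neither the protein nor the polymer was measured.

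Ncam1 lies at chr9:49502136-49798925 on the minus strand (GRCm38, GENCODE M21), Ncam2 at chr16:81200697-81626828 on the plus strand, St8sia2 at chr7:73939119-74013690 on the minus strand and St8sia4 at chr1:95587682-95667571 on the minus strand. The 4 genes are on 4 chromosomes, so none shares a neighborhood with another. The stretches before the start sites of both polysialyltransferase genes are shown because neither gene had a single read in any Nf1/Cdkn2a dKO library. They are from RefSeq (GRCm38.p6), 5′ to 3′ on the minus strand, with capitals marking matches to the motifs named after them.
St8sia2, chr7:74013691-74013932: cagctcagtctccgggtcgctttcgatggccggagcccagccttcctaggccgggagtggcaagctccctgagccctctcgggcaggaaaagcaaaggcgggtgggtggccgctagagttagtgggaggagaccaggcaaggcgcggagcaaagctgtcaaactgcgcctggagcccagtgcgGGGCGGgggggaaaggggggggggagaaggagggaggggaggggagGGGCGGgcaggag
St8sia4, chr1:95667595-95667844: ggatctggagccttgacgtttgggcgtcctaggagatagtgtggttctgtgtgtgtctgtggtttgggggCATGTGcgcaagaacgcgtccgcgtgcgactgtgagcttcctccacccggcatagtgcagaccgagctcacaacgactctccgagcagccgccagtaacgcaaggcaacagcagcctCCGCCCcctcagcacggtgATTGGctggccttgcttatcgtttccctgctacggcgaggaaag

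Both strands were searched for the E-box CANNTG, the GC box GGGCGG, the CCAAT box CCAAT and the TATA box TATAAA, with positions counted backward from the RefSeq start site. The St8sia2 stretch of 242 bases had GC boxes at -67 and -21. The St8sia4 stretch of 250 bases had a GC box at -63, an E-box at -180 and a CCAAT box at -44. Of 32851 RefSeq promoters searched over 250 bases, 32.7% held a GC box, 66.2% an E-box, 33.8% a CCAAT box and 12.4% a TATA box. The GC content was 69.0% before St8sia2 and 60.4% before St8sia4, against a median of 52.4% over all promoters. The GC box was the motif the 2 stretches shared, but the stretch before Ncam2, with 75.2% GC, also held it, at -50 and -40. In stretches this rich in GC the box is more likely than over all promoters, and a match describes the letters only.

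Total counts per library were 19560535 to 28312207, and 65206479 to 73065228 after the cultures of a line were summed. Levels are in CPM (counts scaled to the size of the library, with TMM factors). The targeted genes were read first. Trp53 was at 94.1, 67.5 and 58.7 CPM in Nf1/p53 dKO lines against 247, 246 and 185 CPM in Nf1/Cdkn2a dKO lines. Nf1 was read in all 6 lines, at 12.7 to 70.0 CPM. Cdkn2a was at 363, 279 and 42.9 CPM in Nf1/p53 dKO lines against 169, 392 and 285 CPM in Nf1/Cdkn2a dKO lines. Guides leave small insertions or deletions that need not lower the transcript, so the counts of Nf1 and Cdkn2a check no label.

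Ncam1 had the highest level of the 4 genes in every line, also per kb of exon, and was read in both genotypes. The Nf1/p53 dKO cultures held 1561, 2053 and 1505 counts of Ncam1 in line 1, 2331, 2178 and 1925 in line 2, and 1623, 1610 and 1467 in line 3. The Nf1/Cdkn2a dKO cultures held 342, 241 and 402 counts in line 1, 346, 318 and 272 in line 2, and 368, 209 and 313 in line 3. All 9 libraries of the first genotype were thus above all 9 of the second. The 9 come from 3 tumors, and the share of all genes separated in this way over libraries was not computed.

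As line sums, Ncam1 was at 66.0, 91.0 and 65.0 CPM in Nf1/p53 dKO lines, and at 15.8, 13.5 and 13.9 CPM in Nf1/Cdkn2a dKO lines. The means were 74.0 ± 14.7 CPM and 14.4 ± 1.23 CPM (SD, n = 3 lines each), a ratio of 5.14, and the lowest line of the first genotype was 4.12-fold above the highest of the second. Lines of the genotypes did not overlap for 31.4% of the 15207 genes tested, the Nf1/Cdkn2a dKO being lower for 16.6% and higher for 14.8%, so separated lines alone are common in this table. Since Ncam1 was chosen on this contrast, nothing more is read from the separation. In bulk samples, fewer cells that express a gene and less RNA per cell cannot be told apart.

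St8sia2, the polysialyltransferase that dominates in the embryo, was read only in the Nf1/p53 dKO lines. Its counts there were 65, 63 and 65 in the cultures of line 1, 66, 103 and 70 in line 2, and 137, 173 and 148 in line 3. All 9 Nf1/Cdkn2a dKO libraries held 0 counts, which over the summed cultures of a line allows up to 3 counts, or 0.0433 to 0.0481 CPM. Line sums of the Nf1/p53 dKO were 2.49, 3.38 and 6.34 CPM (mean 4.07 ± 2.02, SD, n = 3 lines). Against the mean of those 3-count limits, St8sia2 was at least 88.2-fold higher in the Nf1/p53 dKO, and limits of this kind cover counting error only.

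St8sia4, the polysialyltransferase that remains in the adult nervous system and is also found in leukocytes, was read in a subset of the Nf1/p53 dKO lines. Its cultures held 153, 315 and 234 counts in line 1 and 111, 102 and 134 in line 2, but 2, 5 and 0 counts in line 3. No read of St8sia4 was counted in the 9 Nf1/Cdkn2a dKO libraries. Lines 1 and 2 of the Nf1/p53 dKO were therefore far above the limit of 3 counts per line, while line 3, with 7 counts in all, was close to it.

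The line sums of St8sia4 were 9.05, 4.91 and 0.0969 CPM (mean 4.68 ± 4.48, SD, n = 3 lines). The mean was about 102-fold above the mean limit in the Nf1/Cdkn2a dKO, which is a lower bound of the fold. Without line 1 the bound was 54.2, and the SD was about as large as the mean. The size of the St8sia4 difference between genotypes thus rested on line 1 and line 2. St8sia4 did not pass the filter on low counts in the contrast of genotypes, and Ncam1 and St8sia2 did.

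Ncam2, which encodes a second NCAM-like adhesion molecule best known from the olfactory system, was barely read. Its cultures held 3, 6 and 12 counts in Nf1/p53 dKO line 1, 9, 5 and 1 in line 2, and 1, 3 and 0 in line 3. Of the 9 Nf1/Cdkn2a dKO libraries, 8 held 0 counts and the second culture of line 3 held 3. At 0.0553 to 0.271 CPM in the first genotype, the levels stood too close to the limit of 3 counts for a fold to be given, and Ncam2 did not pass the filter.

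**Figure D1:**
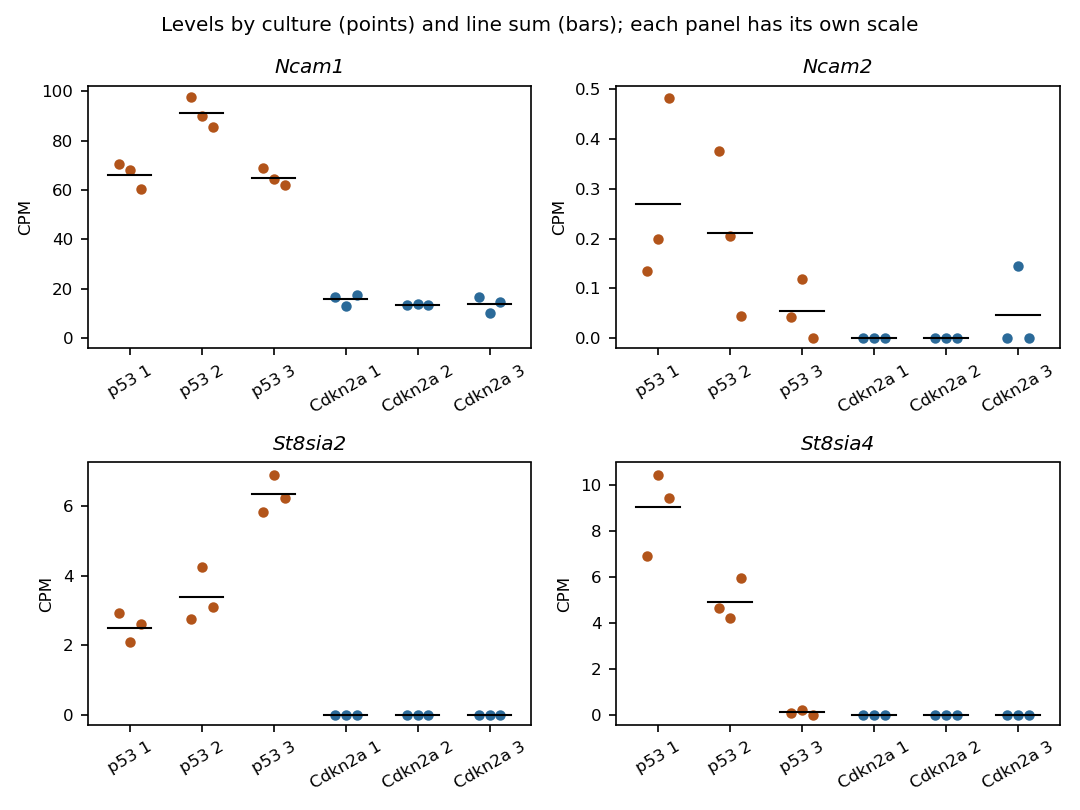
Levels of the 4 genes (CPM, vertical axes, a separate scale in each panel) in the 3 Nf1/p53 dKO lines (p53 1 to 3, brown) and the 3 Nf1/Cdkn2a dKO lines (Cdkn2a 1 to 3, blue), with a point per culture and a bar for the sum of the line. Ncam1 was at 65.0 to 91.0 CPM against 13.5 to 15.8 CPM, and St8sia2 and St8sia4 were at 0 in all 9 Nf1/Cdkn2a dKO libraries, while St8sia4 was close to 0 in Nf1/p53 dKO line 3 also.

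The lines of one genotype were compared next, over their cultures. The contrast that chose the genes divides by the spread between lines, so the choice favored genes with little of it, and a small spread is not read as a result. All 3 genes that could be tested differed between the Nf1/p53 dKO lines by edgeR's quasi-likelihood F test with Benjamini-Hochberg adjustment, where 73.2% of the 14690 genes tested also differed. St8sia2 and St8sia4 passed the filter of that test through the Nf1/p53 dKO lines in which they were read. The lines are separate tumors, so such differences are the rule in this table. Between single pairs, 45.8% of genes differed for lines 1 and 2, 59.3% for lines 1 and 3, and 59.8% for lines 2 and 3.

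Ncam1 was highest in line 2, by 0.45 ± 0.11 on the log2 scale (fitted difference ± SE) over line 1 (edgeR adjusted p = 0.00103) and by 0.48 ± 0.11 over line 3 (edgeR adjusted p = 3.66e-04). Lines 1 and 3 were neighbors in the order and did not differ beyond the spread between cultures (line 3 minus line 1, -0.03 ± 0.11, edgeR adjusted p = 0.836). The range over the 3 lines was 0.48 on the log2 scale.

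St8sia2 took another order and was highest in line 3. The fitted log2 difference of line 3 was 1.32 ± 0.27 to line 1 (edgeR adjusted p = 3.25e-04) and 0.91 ± 0.27 to line 2 (edgeR adjusted p = 0.00655). Line 2 minus line 1 was 0.41 ± 0.28 (edgeR adjusted p = 0.246), which did not pass the threshold of 0.05.

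St8sia4 was ordered from line 1 through line 2 to line 3, the reverse of the order of the St8sia2 levels. The fitted log2 difference of line 2 to line 1 was -0.86 ± 0.29 (edgeR adjusted p = 0.0191). Line 3 was lower by far more, at -6.45 ± 0.47 against line 1 (edgeR adjusted p = 2.19e-10) and -5.60 ± 0.49 against line 2 (edgeR adjusted p = 2.99e-09). With 7 counts in line 3, these sizes are imprecise although their direction is not.

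**Figure D2:**
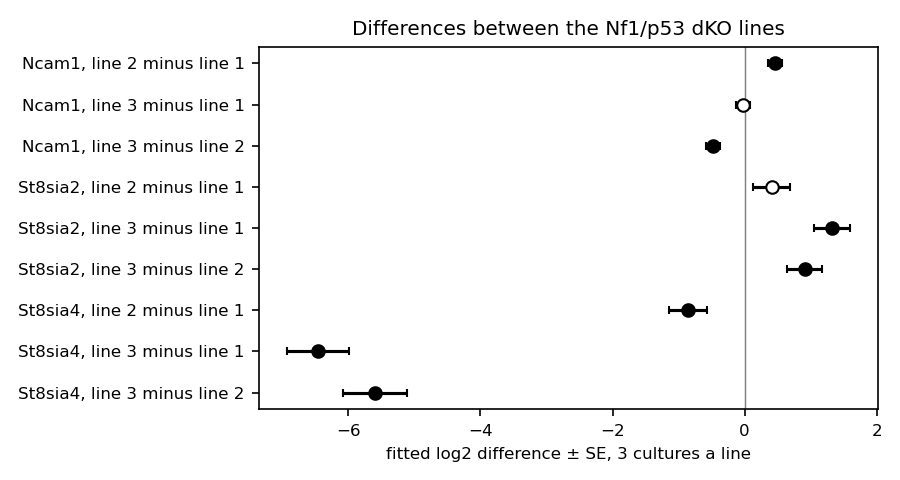
Fitted log2 differences with their SE (horizontal axis) between pairs of Nf1/p53 dKO lines for Ncam1, St8sia2 and St8sia4, 3 cultures a line, with filled points for an edgeR adjusted p under 0.05. Ncam1 moved by at most 0.48, St8sia2 was 1.32 higher in line 3 than in line 1, and St8sia4 was 6.45 lower in line 3 than in line 1.

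Among the Nf1/Cdkn2a dKO lines, Ncam1 had a range of 0.22 on the log2 scale and did not pass the F test (edgeR adjusted p = 0.272). Of all genes 56.8% passed it (32.5% for lines 1 and 2, 39.8% for lines 1 and 3, and 47.5% for lines 2 and 3), but Ncam1 was chosen in a way that favors a small spread here, so nothing is read from that comparison. The largest of the 3 pairwise differences was line 2 minus line 1, at -0.22 ± 0.13. The low level of Ncam1 was thus measured in each of the 3 tumors, at 890 to 985 counts per line. St8sia2 and St8sia4 were at 0 there and had nothing to compare.

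Levels of different genes were compared per kb of merged exons, since a longer transcript yields more reads. On this scale Ncam1 was at 7.62, 10.5 and 7.51 CPM per kb in the Nf1/p53 dKO lines and at 1.82, 1.56 and 1.61 in the Nf1/Cdkn2a dKO lines. St8sia2 was at 0.462, 0.628 and 1.18 CPM per kb and St8sia4 at 0.450, 0.244 and 0.00482 in Nf1/p53 dKO lines 1, 2 and 3. The transcripts of the acceptor protein NCAM thus exceeded those of both enzymes together, by 8.35, 12.0 and 6.35-fold in the 3 lines. With the longest protein-coding mRNA as the length, Ncam1 was at 10.1, 13.9 and 9.91 CPM per kb against enzyme sums of 1.37, 1.12 and 1.19. The excess remained in each line, but its size and the order of lines 1 and 3 turned with the length.

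The share of St8sia4 in the summed level of both enzymes was 49.4% in line 1, 28.0% in line 2 and 0.408% in line 3. Over single cultures it ranged from 38.7 to 57.3% in line 1, from 21.0 to 33.9% in line 2 and from 0 to 0.769% in line 3, without overlap between lines. As a share of reads, with no correction for length, St8sia4 gave 702 of 895 in line 1 (78.4%, exact Clopper-Pearson 95% interval 75.6 to 81.1%), 347 of 586 in line 2 (59.2%, 55.1 to 63.2%) and 7 of 465 in line 3 (1.51%, 0.607 to 3.08%). These intervals cover counting error only, and single cultures spread wider, with 70.2, 83.3 and 78.3% in line 1 and 62.7, 49.8 and 65.7% in line 2. The order of the lines was the same on each scale.

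The size of the share depended on the length used. The merged exons of St8sia4 span 20091 bases and its longest protein-coding mRNA 10027 bases, while those of St8sia2 are 5384 and 5368 bases. With the longest mRNA as the length, an alternative added after the data were seen, the St8sia4 share was 66.1%, 43.7% and 0.812% in lines 1, 2 and 3. Which enzyme was the more abundant in line 1 therefore turned with the length, while St8sia2 was the more abundant in lines 2 and 3 by both lengths. St8sia4 also has a protein-coding mRNA of 5390 bases, close to the 5368 of St8sia2. At near-equal lengths its share would be close to that of reads, 59.2% in line 2, so line 2 may turn as well.

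The summed enzyme level was 0.912, 0.872 and 1.18 CPM per kb of merged exons in Nf1/p53 dKO lines 1, 2 and 3, and 1.37, 1.12 and 1.19 with the longest mRNA as the length. It spanned less than either gene did alone, and the order of the lines turned with the length. Line 3 had the highest level of St8sia2 and almost no St8sia4, and line 1 the reverse order. No test was run on the sum.

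**Figure D3:**
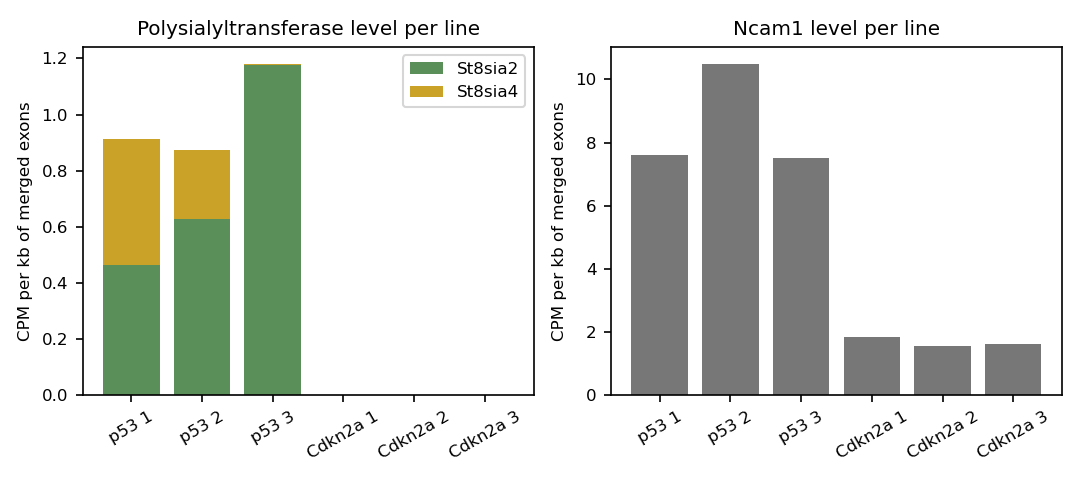
Summed level of St8sia2 (green) and St8sia4 (yellow) at left, and the level of Ncam1 at right, in CPM per kb of merged exons (vertical axes from 0) for each of the 6 lines. The enzyme sum was 0.872 to 1.18 in the Nf1/p53 dKO lines with a St8sia4 share of 49.4, 28.0 and 0.408%, and no read of either enzyme was counted in the Nf1/Cdkn2a dKO lines, where Ncam1 remained at 1.56 to 1.82.

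The other genes of the pathway were then read in the contrast of genotypes, as log2 fold changes of the Nf1/Cdkn2a dKO over the Nf1/p53 dKO on the 6 line sums. In that contrast 274 of 15207 genes (1.80%) had an edgeR adjusted p under 0.05, with 0.638% called higher and 1.16% called lower in Nf1/Cdkn2a dKO cells. Here the median log2 fold change over all genes was -0.02. The donor substrate of both enzymes is CMP-sialic acid, which is made in the cytoplasm and nucleus and carried into the Golgi. None of the 5 genes of this supply was called, with 1 at an unadjusted p under 0.05 (22.4% of all genes were) and a median log2 fold change of 0.01.

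Gne, which encodes the rate-limiting enzyme of sialic acid synthesis, was at 19.2, 25.7 and 17.0 CPM in Nf1/p53 dKO lines against 29.4, 27.6 and 30.2 CPM in Nf1/Cdkn2a dKO lines, and its log2 fold change of 0.49 ± 0.20 did not pass (edgeR adjusted p = 0.209). Nans (sialic acid synthase) was at 0.00 ± 0.20 and Slc35a1 (the Golgi transporter of CMP-sialic acid) at 0.01 ± 0.14. Cmas, which activates sialic acid to CMP-sialic acid, was at 0.38 ± 0.25, and the phosphatase gene Nanp, at under 0.34 CPM in every line, at -0.70 ± 0.40. The supply genes Gne, Nans, Cmas and Slc35a1 were read at 17.0 CPM or more in every line of both genotypes, also where the polysialyltransferases were at 0.

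Of the 6 genes of sialic acid breakdown, 4 were tested, none was called, 2 had an unadjusted p under 0.05 and the median log2 fold change was 0.39. The highest was Neu1, the lysosomal sialidase, at 0.91 ± 0.46 (edgeR adjusted p = 0.302), and the lowest Npl, the lyase that splits free sialic acid, at -1.79 ± 0.66 (edgeR adjusted p = 0.180). Of the 18 sialyltransferases other than the polysialyltransferases, 11 were tested, none was called (none also at an unadjusted p under 0.05) and the median was -0.24. St8sia6, of the same ST8SIA family, was the highest at 1.24 ± 0.60 but at under 0.43 CPM in every line, and St6galnac4, which sialylates O-glycans and glycolipids, was the lowest at -0.82 ± 0.34 (edgeR adjusted p = 0.226). St8sia3, also of that family, was at 0 in all libraries. None of the 11 tested was at 0 in all lines of a genotype. Some of those that missed the filter on low counts were, and the filter removes such genes, so nothing is read from this.

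The 7 enzymes that build the branched N-glycans on which polysialic acid is extended were all tested, and none was called. Their median log2 fold change was 0.70 (0.40 without Nf1/p53 dKO line 3), and 4 had an unadjusted p under 0.05, against 22.4% of all genes. The lines of 4 of the 7 (Mgat1, Mgat2, Mgat4b and Mgat5) did not overlap, with higher levels in the Nf1/Cdkn2a dKO, as for 14.8% of all genes. Mgat5, which adds a branch of complex N-glycans, was the highest at 1.36 ± 0.33 (edgeR adjusted p = 0.0845), with 27.7, 19.97 and 12.3 CPM against 45.8, 64.4 and 43.4 CPM. Fut8, the core fucosyltransferase, was the lowest at -0.35 ± 0.29 (edgeR adjusted p = 0.521).

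Polysialic acid is also carried by a few proteins other than NCAM, and 3 of the 4 on the list were tested with none called (none at an unadjusted p under 0.05). Cadm1 (SynCAM 1) was the highest at 1.19 ± 0.54 (edgeR adjusted p = 0.259) and Glg1 (E-selectin ligand 1) the lowest at 0.03 ± 0.32. Nrp2, a receptor for semaphorins, was at 329, 388 and 83.1 CPM in the first genotype and 465, 394 and 258 CPM in the second. The fourth carrier, Ccr7, was at most 0.0782 CPM in every line.

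Among 14 genes whose proteins bind NCAM or polysialic acid or act downstream of NCAM, 13 were tested, 2 were called lower in the Nf1/Cdkn2a dKO and none higher. This compares with 1.16% of all genes called lower. Of the 2, Fgfr2, at most 0.235 CPM in Nf1/Cdkn2a dKO lines, passed the filter on low counts through the Nf1/p53 dKO lines. It could therefore only be called lower. The median log2 fold change of the list was -0.21 (0.04 without Nf1/p53 dKO line 2), with 6 fitted higher and 7 lower, so the list did not move one way.

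Fgfr2, a receptor of fibroblast growth factors, a family through which NCAM can signal, was at 10.1, 8.94 and 16.3 CPM in Nf1/p53 dKO lines against 0.0642, 0.159 and 0.235 CPM in Nf1/Cdkn2a dKO lines. It fell by 6.25 ± 0.59 on the log2 scale (edgeR adjusted p = 0.0189). The adjusted p ranged from 8.70e-75 (DESeq2 on the 18 cultures as separate samples) to 0.101 (edgeR) over 13 alternatives. It missed 0.05 in 4 of them, among these each Nf1/Cdkn2a dKO line left out in turn (edgeR adjusted p 0.0889 without line 1, 0.101 without line 2 and 0.0506 without line 3). Those that passed include fits on the 18 cultures. Cultures of a line share their tumor, so such fits overstate the evidence for a difference between genotypes.

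Gdnf encodes the growth factor that can use NCAM with GFRA1 as a receptor. It was at 66.6, 29.0 and 44.0 CPM in Nf1/p53 dKO lines against 9.43, 7.54 and 13.8 CPM in Nf1/Cdkn2a dKO lines. It fell by 2.18 ± 0.37 on the log2 scale (edgeR adjusted p = 0.0479), just inside the threshold. Of 14 alternatives 7 missed it, including the omission of any one line (edgeR adjusted p 0.0659 to 0.153), while its fitted change stayed between -2.45 and -1.83. The fits on the 18 cultures were again among those that passed.

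The highest of the partners was Bdnf, whose protein can be held by polysialic acid, at 1.56 ± 0.52 (edgeR adjusted p = 0.149). Gfra1 and Fgfr1 were looked at after their values were seen, as the receptor genes that go with Gdnf and Fgfr2. Gfra1 was at 90.0, 41.7 and 9.08 CPM in Nf1/p53 dKO lines 1, 2 and 3 and at 14.5, 8.005 and 18.1 CPM in Nf1/Cdkn2a dKO lines, so the genotypes overlapped (-1.80 ± 0.77, edgeR adjusted p = 0.232). Within the Nf1/p53 dKO, Gfra1 was lower in line 3 than in line 1 by 3.32 ± 0.10 on the log2 scale (edgeR adjusted p = 1.84e-19). For this pair 59.3% of all genes differed. The order of lines was that of St8sia4, but other listed genes had it too, among them Fgfr1 (482, 436 and 347 CPM), Mgat5 and Fut8. Nothing is read from the shared order. Fgfr1 was at 347 to 482 CPM against 230 to 269 CPM (-0.77 ± 0.17, edgeR adjusted p = 0.0699).

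Of the 12 other neural adhesion molecules of the immunoglobulin superfamily, 5 were tested and none was called, with 3 at an unadjusted p under 0.05 (22.4% of all genes) and a median log2 fold change of -1.63. That median was -0.53 without Nf1/p53 dKO line 1 and -0.88 without line 3. L1cam, which encodes an axonal adhesion molecule that binds NCAM on the same membrane, was the lowest at -2.06 ± 0.46 (edgeR adjusted p = 0.0705), with 2.59, 4.14 and 3.18 CPM against 0.818, 1.11 and 0.438 CPM. Alcam was the highest at 0.41 ± 0.59 (edgeR adjusted p = 0.716). The lines of L1cam, Nrcam and Mcam did not overlap, with lower levels in the Nf1/Cdkn2a dKO, as for 16.6% of all genes, while those of Alcam and Cntn1 overlapped. By DESeq2 on the same 6 line sums, which called 14.3% of all genes, none of the supply genes, other sialyltransferases or other carriers was called, and 1 of 4 breakdown genes, 3 of 7 N-glycan enzymes, 6 of 13 NCAM partners and 3 of 5 other adhesion molecules were.

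**Figure D4:**
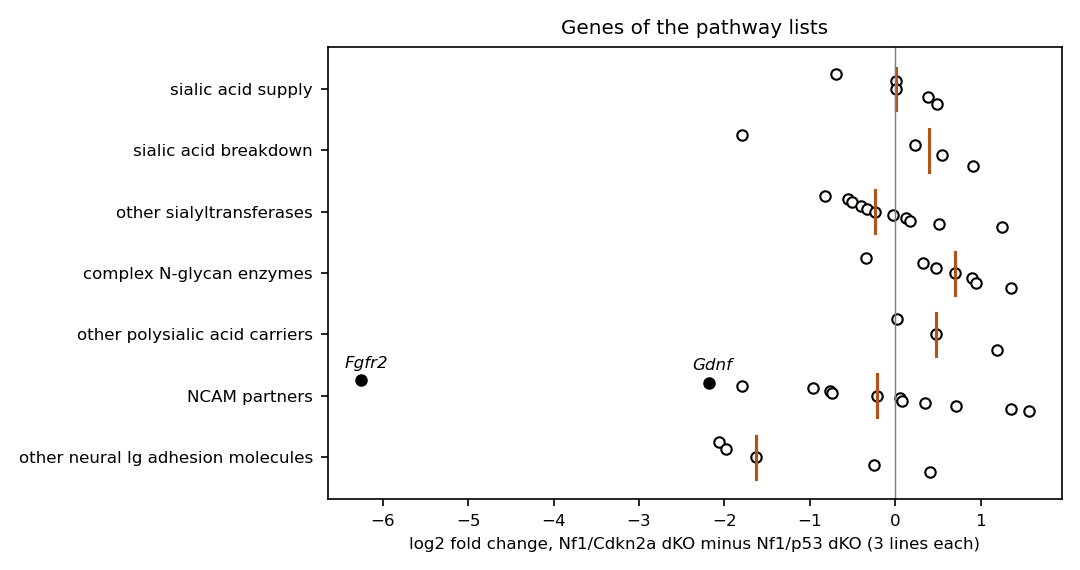
Log2 fold changes of the Nf1/Cdkn2a dKO over the Nf1/p53 dKO (horizontal axis, 3 lines each) for the tested genes of 7 lists around polysialylated NCAM, a point per gene and a brown bar for the median of the list, with filled points for an edgeR adjusted p under 0.05. Fgfr2 at -6.25 and Gdnf at -2.18 were the genes called, and the medians ran from -1.63 for the other adhesion molecules (-0.53 without Nf1/p53 dKO line 1) to 0.70 for the N-glycan enzymes (0.40 without line 3).

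Genes whose pattern over the 6 lines was most like that of a member were ranked by the root mean square difference of centered log2 CPM (0.1 CPM added) among 13566 protein-coding genes. For St8sia2 the nearest were Fgfr2 (0.39), Rbm20 (0.42), Zfp583 (0.52), Dlx3 (0.52) and Jph1 (0.53), and 4 of these 5 were again among the nearest 5 over the 18 cultures. Only 2 genes lay within 0.5 of St8sia2. For Ncam1 they were Trim29 (0.18), Mical1 (0.18), Defb28 (0.20), Uox (0.24) and Klhl30 (0.25), with 1 of 5 (Mical1) again among the nearest over the 18 cultures and 119 genes within 0.5. Trim29, Defb28 and Uox stayed under 0.7 CPM in every line. The measure adds 0.1 CPM to every level, so for genes near 0, as St8sia2 was in the Nf1/Cdkn2a dKO lines, it depends on that value. It also takes in the gap between genotypes on which the members were chosen. The 18 cultures are the same reads as the 6 line sums, so a gene found again there has no independent support.

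The genes next to the members on the chromosome were read too. None of the nearest protein-coding neighbors that were tested was called. With 1.80% of all genes called, that is the likely outcome for so few genes. On the side of lower coordinates, 15.9 kb from Ncam1, lies Ttc12 (0.74 ± 0.42, edgeR adjusted p = 0.347), at 4.00 to 12.5 CPM in Nf1/p53 dKO lines and 13.2 to 16.7 CPM in Nf1/Cdkn2a dKO lines, opposite in sign to Ncam1, and then Ankk1 (-0.06 ± 1.26), with Rpl10-ps3 (1.23 ± 0.48, edgeR adjusted p = 0.200) and Plet1 on the other side. Beside St8sia2, Chd2 was at 39.6 to 59.5 CPM and Slco3a1 at 18.2 to 47.4 CPM over the 6 lines (0.21 ± 0.18 and -0.17 ± 0.41), while Fam174b and Sv2b stayed under 0.8 CPM. Beside St8sia4, Fam174a was at 5.74 to 15.5 CPM (0.48 ± 0.34), and Pdcd1, Slco4c1 and Slco6c1 were at or near 0. Around Ncam2, Tmprss15, Chodl and Gm21833 had at most 1 count in a culture. The antisense gene Gm11149 overlaps 417 exonic bases of Ncam1, and whether strand was used in counting is not given. It had at most 5 counts in a culture, and its part in the counts of Ncam1 was not tested.

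Markers of cell types that express NCAM were read beside the members. Of 9 muscle progenitor markers, 5 were tested and 2 were called (Myf5 and Cdh15), both lower in the Nf1/Cdkn2a dKO, as were 1.16% of all genes. A gene near 0 in the Nf1/Cdkn2a dKO lines, as Myf5 was, passes the filter on low counts only through the Nf1/p53 dKO lines. It can then only be called lower. The list was also chosen with earlier results of these data known, so nothing is read from the number called. The summed level of the list was 87.6, 55.4 and 418 CPM in Nf1/p53 dKO lines 1, 2 and 3 and 0.219 to 2.12 CPM in Nf1/Cdkn2a dKO lines. The sum of the list was thus separated between genotypes as Ncam1 and St8sia2 were, and the part of these markers in the members' levels was not tested.

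Myf5, a myogenic transcription factor, was at 28.0, 24.2 and 27.7 CPM in Nf1/p53 dKO lines against 0, 0 and 0.0156 CPM in Nf1/Cdkn2a dKO lines (edgeR adjusted p = 0.00672), and Cdh15 (M-cadherin) was at 34.2, 27.9 and 97.6 CPM against 0.125 to 0.332 CPM (-7.76 ± 0.73, edgeR adjusted p = 0.0191). Myod1, the lowest fitted of the list, was at 1.75, 0.269 and 204 CPM against 0 (edgeR adjusted p = 0.172), and Ckm, the highest, at -1.52 ± 1.59. Without Nf1/Cdkn2a dKO line 1 the adjusted p was 0.0795 for Myf5 and 0.0969 for Cdh15, and Cdh15 also missed 0.05 without line 2 (0.0997) or line 3 (0.0669) of that genotype. The defining progenitor markers Pax3 and Pax7 were at most 0.156 CPM in every line. Across the Nf1/p53 dKO lines, Myf5 did not pass the F test (edgeR adjusted p = 0.137), St8sia2 and Myod1 were both highest in line 3, and St8sia4 was lowest there. Other listed genes were highest in line 3 too, among them Dcn, Nrcam and Glg1, and 59.3% of all genes differed between lines 1 and 3. Nothing is read from the shared order.

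Of 11 Schwann cell markers, 9 were tested, none was called, 4 had an unadjusted p under 0.05 (22.4% of all genes) and the median log2 fold change was -2.67. The sums were 31.0, 147 and 82.1 CPM against 17.1 to 48.8 CPM, and the defining marker Sox10 was at most 0.0990 CPM in every line. Cdh19 was the lowest fitted, with 0.425, 3.90 and 0.138 CPM against 0. All 9 were fitted lower, but the sum of the list and Cdh19 were highest in Nf1/p53 dKO line 2. The median without that line was not computed. Of 8 neuron markers 3 were tested and none was called, with no unadjusted p under 0.05, at sums of 71.6 to 128 CPM against 57.3 to 122 CPM, with Map2 the lowest (-0.80 ± 0.44) and Stmn2 the highest (0.06 ± 0.48). The part of these markers in the results was not tested.

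The labels call the cells mesenchymal, and Vim and Col1a1 were at 4727 to 10207 and 302 to 4173 CPM over the 6 lines. Of the 7 mesenchymal markers, Dcn alone was called, lower in the Nf1/Cdkn2a dKO (-6.34 ± 1.08, edgeR adjusted p = 0.0470), and Vim was the highest (0.75 ± 0.20). NCAM is also a marker of human natural killer cells, which need not hold in the mouse, and St8sia4 is read in leukocytes. The 8 leukocyte markers summed to 2.59 to 4.74 CPM against 5.13 to 7.56 CPM with none called, and most of the sum was Cd68, at 1.96 to 4.38 CPM against 4.33 to 7.14 CPM. Ncr1 and Cd3e were at most 0.125 CPM in every line, with Ptprc the highest (1.06 ± 0.59) and Lyz2 the lowest (-0.42 ± 0.44). Of 5 endothelial markers, at sums of 1.29 to 2.02 CPM against 0.641 to 1.93 CPM, Tek was called lower (-3.23 ± 0.55, edgeR adjusted p = 0.0465) and Cdh5 was the highest (1.61 ± 0.67). The call of Tek was lost without any one of the 6 lines and that of Dcn without any of 5, the exception being Nf1/p53 dKO line 3. The 4 epithelial markers summed to between 2.67 and 739 CPM in Nf1/p53 dKO lines and between 8.26 and 611 CPM in Nf1/Cdkn2a dKO lines, with none called, from Cdh1 (-3.20 ± 1.21) to Epcam (0.27 ± 0.62).

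**Figure D5:**
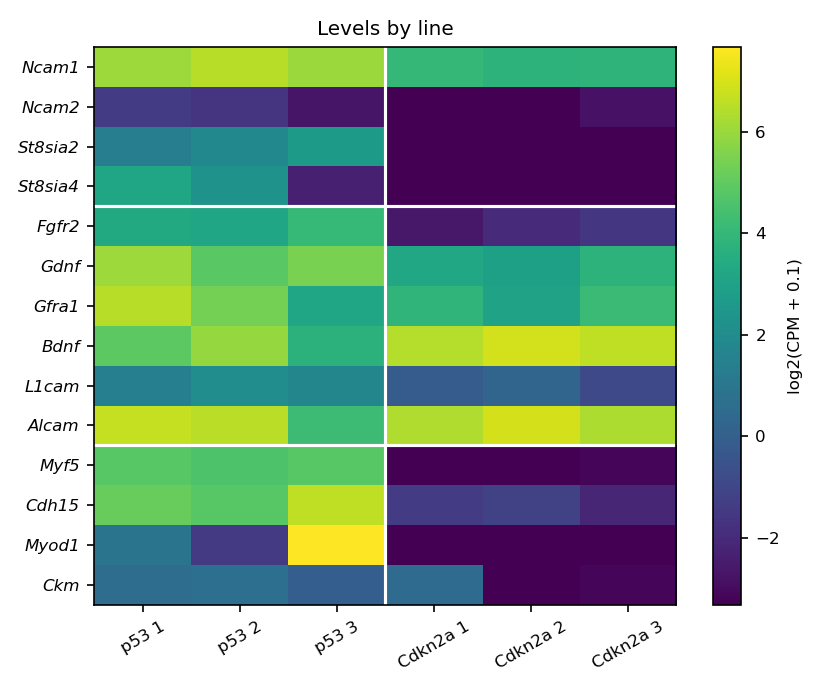
Levels by line as log2 of CPM plus 0.1 (color) for the 4 genes, for genes around NCAM and for muscle progenitor markers, with the Nf1/p53 dKO lines at left and the Nf1/Cdkn2a dKO lines at right, all shown by the rule for named genes except Gfra1, which was added after its values were seen. Fgfr2 and Myf5 were at most 0.235 CPM in Nf1/Cdkn2a dKO lines, while Gfra1, at 90.0, 41.7 and 9.08 CPM in Nf1/p53 dKO lines 1, 2 and 3, overlapped between genotypes.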

How the data were processed

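The authors deposited raw read counts, whole numbers per gene and library without normalization. Per the labels, the submitters' processing notes name CASAVA, STAR 2.5 and DESeq2 1.14.1 with GRCm38 (mm10), while the counting tool and annotation are not given in the sources used here. Column names gave the genotype, the line and the culture of all 18 libraries.

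For each line the cultures' counts were added up. Low genes were dropped with filterByExpr at a minimum count of 10 and a total of 15, TMM factors were computed, and genotypes were compared by the two-sided quasi-likelihood test of edgeR 4.0.16, adjusted by Benjamini-Hochberg over all genes at a threshold of 0.05 (limma 3.58.1, DESeq2 1.42.0, R 4.3.3). Lines within a genotype were compared in a fit of all 18 cultures. Lengths and positions came from GENCODE M21, and promoters from RefSeq, where 3 of the 4 members had an entry. The steps were tested on simulated data.

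The members, the gene lists and the markers were chosen with earlier results of these data known. Named genes are the members, the targeted genes, every called gene of a list with its highest and lowest fold change, the supply genes, the chromosomal neighbors and the 5 genes of most like pattern. Nrp2, Ccr7, St8sia3, Mgat1, Mgat2, Mgat4b, Nrcam, Mcam, Cntn1, Pax3, Pax7, Sox10, Col1a1, Cd68, Ncr1, Cd3e, Gfra1 and Fgfr1 fall outside that rule and were named after their values were seen. Cultures of 1 line differed by 3.57 to 29.2 chi-square per degree of freedom, so none was a repeated library. Values of a few marker genes are not reported here.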

Additional observations from a re-analysis of the deposited data

How the results depend on the processing

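For Ncam1, St8sia2 and St8sia4 every Nf1/p53 dKO line was above every Nf1/Cdkn2a dKO line, for St8sia4 in line 3 by 7 counts against 0. The members were chosen on this contrast, and 16.6% of all genes tested were separated in this direction. With the lines separated, leaving out a line could not turn the direction of these genes, and the settings bear on the size only. None was run for Ncam2. The Ncam1 ratio was 4.50 to 5.62 over 8 settings (each line left out, raw totals, DESeq2 size factors), the St8sia2 bound 63.5 to 105, and the St8sia4 bound 54.2 (without Nf1/p53 dKO line 1) to 151. Differences between Nf1/p53 dKO lines passed the threshold under all alternatives run, with edgeR or DESeq2 adjusted p of at most 0.00555 for Ncam1, 0.0140 for St8sia2 and 4.17e-07 for St8sia4. With at least 10 counts in every culture, St8sia2 and St8sia4 could not be tested. Ncam1 passed in none among the Nf1/Cdkn2a dKO lines (adjusted p 0.0748 to 0.716). By the longest mRNA, the St8sia4 share was 66.1% in line 1 and 43.7% in line 2. Low counts limit Ncam2 everywhere and St8sia4 in Nf1/p53 dKO line 3.

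Calls between genotypes depended on the unit of replication. Taken as separate samples, which share their tumor, the 18 cultures gave 6096 called genes with edgeR (46.5% of 13110) and 6409 with DESeq2 (48.9%), and DESeq2 on the 6 lines gave 2171 (14.3%), against 274. Omitting 1 line gave 0 to 172 called genes (0 without Nf1/Cdkn2a dKO line 1, where 2668 genes had an unadjusted p under 0.05, 2 without line 2, 23 without line 3, and 172, 27 and 107 without Nf1/p53 dKO lines 1, 2 and 3), and 0 to 1 NCAM partners. Among the lists, edgeR and DESeq2 on the 18 cultures called 2 and 2 of 4 supply genes, 3 and 3 of 4 of breakdown, 4 and 4 of 10 other sialyltransferases, 5 and 6 of 7 N-glycan enzymes, 1 and 1 of 3 other carriers, 7 and 7 of 13 partners and 3 and 3 of 5 other adhesion molecules, to be read against those shares. DESeq2 on the 6 lines called 1 of breakdown, 3 N-glycan enzymes, 6 partners and 3 adhesion molecules. Without a filter 1 N-glycan enzyme was called, and with at least 10 counts in every line, which leaves Fgfr2 untested, 1 partner was. The cause of the other shifts was not tested.

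Line and culture numbers are only names. Same-numbered lines deviated with correlations of -0.12, -0.13 and -0.08, and same-numbered cultures with -0.10 to 0.16, against -0.24 to 0.16 for other numbers. With the line number as a block, edgeR called 0 genes (2740 at an unadjusted p under 0.05) and 0 partners. With the culture number as a block on the 18 cultures it called 5681 genes (43.3%), and by list 1 supply gene, 3 of breakdown, 4 sialyltransferases, 4 N-glycan enzymes, 1 carrier, 7 partners and 3 adhesion molecules. That block changed no call of a member between lines.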
